A study of Rattus norvegicus with 9 samples.

Results

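The libraries compared here come from neonatal rat cardiac myocytes in which either the polarity genes Llgl1 and Llgl2 or the Hippo effector Yap had been knocked down, and the 2 knockdowns were set against each other directly. The comparison uses 6 of the 9 libraries of the series, 3 with siRNA against a combination of Llgl1 and Llgl2 (Llgl1/2 siRNA) and 3 with siRNA against Yap, and the other 3, with universal negative control siRNA, serve to place each gene above or below the untargeted level. All groups were primary myocytes of 2-day-old Sprague Dawley rats, freed from whole hearts with a dissociation kit and separated on a Percoll gradient. They were kept in medium with 15% fetal bovine serum, transfected after 16 h with 2 siRNAs per target at 25 nM each, and collected 48 h later for low-input poly-A RNA-seq. Since the first group had a pair of target genes, it may have received more siRNA in total, and the effects of dose and target cannot be told apart. The labels do not say whether replicates were separate cultures, so the spread behind every p-value may be technical only.

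Llgl1 and Llgl2 are the mammalian homologs of lethal giant larvae, which in the fly holds the basolateral side of epithelial cells apart from the apical Par and Crumbs complexes and is known as a tumour suppressor. YAP is a transcriptional coactivator that binds DNA through TEAD factors and is kept out of the nucleus by the Hippo kinases, and polarity and junction proteins are among the inputs to those kinases. In the neonatal heart YAP is known for its part in myocyte proliferation.

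Expression was measured as FPKM, fragments counted per length of transcript and per number of mapped fragments, as the authors deposited it. A gene was tested where it reached 1 FPKM in at least 3 of the 9 libraries, which kept 10789 of 14636 genes. Differences are on the log2(FPKM + 1) scale, Llgl1/2 siRNA minus Yap siRNA unless said otherwise, with a standard error (SE) from limma, and a gene was called at an adjusted p under 0.05 over all tested genes. The sum of FPKM per library ran from 572884 to 620119, and read depth is unknown. Libraries of the Llgl1/2 and Yap siRNA groups correlated across genes at 0.962 to 0.971 (Pearson, log2 scale), and libraries of the same group at 0.99 to 0.994. Summed over 14 markers of working cardiomyocytes the level was 34600 to 39000 FPKM after Llgl1/2 siRNA, 29600 to 33200 in the controls and 39600 to 42000 after Yap siRNA, and none of these markers was below 1 FPKM in every library.

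The targeted genes separated the groups in the direct comparison. Yap1 stood at 46.5, 53.7 and 56.8 FPKM in the Llgl1/2 siRNA libraries and at 5.9, 4.43 and 6.0 in the Yap siRNA libraries, against 55.3, 60.8 and 63.1 in the controls. Llgl1 stood at 4.76, 4.65 and 4.75 FPKM after Llgl1/2 siRNA, at 9.5, 7.14 and 9.88 after Yap siRNA and at 12.1, 11.9 and 12.4 in the controls. Llgl2 stood at 6.51, 7.33 and 7.62, 8.11, 8.69 and 12.01 and 13.9, 12.04 and 14.9 FPKM in the same order. For each of the 3 genes the targeted libraries lay below the libraries of the other knockdown without overlap, as the 2 knockdowns did for 54.4% of all tested genes. Yap1 differed by 3.05 ± 0.11 (SE) on the log2 scale (limma, adjusted p = 3.8e-10) and Llgl1 by -0.77 ± 0.11 (limma, adjusted p = 0.0001). The contrast in Llgl2 was small, at -0.36 ± 0.13 (limma, adjusted p = 0.036). Both Llgl genes also lay below the control after Yap siRNA, Llgl1 at -0.43 ± 0.11 and Llgl2 at -0.48 ± 0.13. Limma's call for Llgl2 was lost without Yap siRNA library 3 (-0.21, adjusted p = 0.16) or Llgl1/2 siRNA library 1 (-0.31, adjusted p = 0.12) or 2 (-0.38, adjusted p = 0.066). The call was also lost with no filter on low values (adjusted p = 0.061) and with only the 6 libraries compared (adjusted p = 0.051).

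The 2 knockdowns differed widely, mostly by small amounts. Of the gene lists, 20 of 29 tested G1/S and DNA replication genes, 22 of 40 focal adhesion and actin genes and 15 of 26 polarity genes were higher after Llgl1/2 siRNA, with 1, 5 and 0 lower. Lower were 34 of 44 NF-kB and chemokine genes, 15 of 18 secreted acute-phase genes and 14 of 19 endothelial markers, with 1, 0 and 0 higher. The lists were chosen with earlier results of these data known, so their counts are descriptions only. In limma's test 5070 of 10789 genes were called (47.0%), 3024 of them higher after Llgl1/2 siRNA (28.0%) and 2046 lower (19.0%). The counts of every list, here and below, are to be read against these shares of 28.0% and 19.0%. A difference of at least 1 on the log2 scale was found for 355 genes (3.29%), 161 higher (1.49%) and 194 lower genes (1.8%). The median difference over all tested genes was 0.08 and the median SE 0.106. The surplus of higher genes depended on the scaling between libraries, since median-ratio scaling gave 2320 higher and 2596 lower genes and quantile normalization 2555 and 2332.

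**Figure D1:**
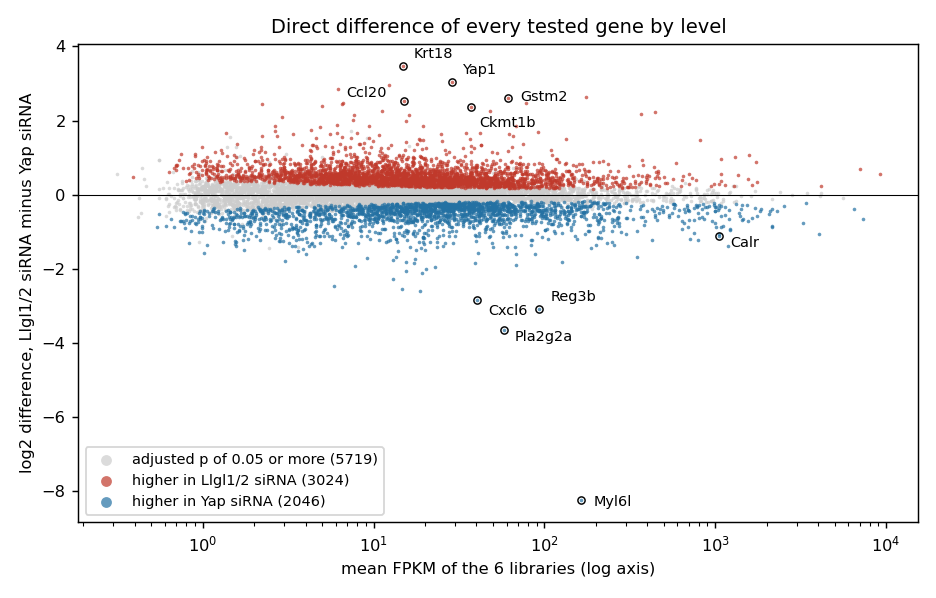
Each point is a tested gene, with its mean FPKM over the 6 libraries compared (log axis) and its log2 difference, Llgl1/2 siRNA minus Yap siRNA. Called genes lie on both sides at every level, 3024 higher after Llgl1/2 siRNA and 2046 higher after Yap siRNA, and most lie within 1 of zero.

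The target Yap1 was itself among the 12 largest differences in favour of Llgl1/2 siRNA. The others with a clear identity encode keratins, a cadherin, a chemokine, a detoxifying enzyme, a mitochondrial kinase and a Toll-like receptor accessory protein. Krt18 and Krt8 encode the paired keratins of simple epithelia. Krt18 had the largest difference of the 12, at 3.48 ± 0.18 (limma, adjusted p = 1.4e-08), and Krt8 stood at 2.40 ± 0.19. Cdh3, the P-cadherin gene, stood at 13.2, 11.2 and 11.2 FPKM after Llgl1/2 siRNA and 1.69, 1.21 and 1.1 after Yap siRNA, a ratio of means of 8.89. Tril encodes an accessory protein of Toll-like receptor signalling. It stood at 12.5, 10.8 and 12.1 and 1.5, 1.11 and 1.34 FPKM, and its controls, at 11.9, 12.5 and 12.96, overlapped the Llgl1/2 siRNA libraries.

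Fhl1 and Acta1, which encode a four-and-a-half LIM domain protein of muscle and skeletal muscle actin, followed closely behind at much higher levels. Fhl1 averaged 736 ± 85.8 FPKM (SD, n = 3) after Llgl1/2 siRNA and 156 ± 21.7 after Yap siRNA, a difference of 2.23 ± 0.11 (limma, adjusted p = 6e-09). Acta1 averaged 600 ± 90 and 132 ± 16.9, a difference of 2.18 ± 0.11 (limma, adjusted p = 7.6e-09). In neither gene did the libraries of the 2 knockdowns overlap, and in both the controls were near the Llgl1/2 siRNA level.

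At the other end, apart from Myl6l, whose reads other genes can share, the secreted immune and defence genes Pla2g2a, Reg3b and Cxcl6 had the largest differences of the 12 in favour of Yap siRNA. Pla2g2a encodes a secreted phospholipase A2 that attacks bacterial membranes. It stood at 115, 119 and 90.5 FPKM after Yap siRNA and at 8.43, 7.55 and 7.18 after Llgl1/2 siRNA, a ratio of means of 14 (-3.64 ± 0.11, limma, adjusted p = 2e-10). Reg3b, a secreted C-type lectin gene, stood at 145, 198 and 162 and 16.6, 22.5 and 18.1, with controls at 21.8, 17.9 and 22.1, so that Llgl1/2 siRNA and control libraries overlapped and the Yap siRNA libraries stood alone. Cxcl6, a neutrophil chemokine gene, showed the other arrangement. Its Yap siRNA libraries, at 72.2, 77.9 and 63.6 FPKM, overlapped the controls, at 51.9, 69.4 and 37.6, and its Llgl1/2 siRNA libraries were low, at 10.99, 6.73 and 10.02. Serpinb2, a plasminogen activator inhibitor gene, had 29.6, 28.5 and 19.8 FPKM after Yap siRNA and 3.99, 4.09 and 2.69 after Llgl1/2 siRNA. Igfbp5, which encodes a binding protein of insulin-like growth factors, was above the controls after both, with 31.2, 39.4 and 39.4 FPKM after Yap siRNA, 4.77, 10.98 and 12.1 after Llgl1/2 siRNA and 0.54, 1.63 and 1.89 in the controls.

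A pair of receptors for lysophosphatidic acid, a lipid signal that acts through G proteins, stood in opposite order. Lpar2 had 12.5, 11.04 and 8.14 FPKM after Yap siRNA and 1.19, 0.94 and 1.11 after Llgl1/2 siRNA (-2.46 ± 0.16, limma, adjusted p = 7.3e-08). Lpar3 had 1.67, 3.01 and 2.67 after Yap siRNA and 13.3, 12.4 and 12.5 after Llgl1/2 siRNA (2.02 ± 0.14, limma, adjusted p = 2.2e-07). The groups did not overlap for either receptor. In the controls Lpar2, at 1.5, 1.47 and 1.0, overlapped the Llgl1/2 siRNA libraries, while Lpar3, at 6.76, 8.92 and 8.09, lay between the 2 knockdowns.

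Some of the largest differences sat in genes whose reads other genes can share. Myl6l was listed at 0 in all Llgl1/2 siRNA and control libraries and at 212, 519 and 249.6 FPKM after Yap siRNA. Myl6, the myosin light chain gene with a like name, was lower after Yap siRNA, at 991, 684 and 969.7 against 1439, 1222 and 1215 (0.57 ± 0.12, limma, adjusted p = 0.0019). The gene called Rpl37a in the file (gene ID 100361520) stood at 363, 219 and 323 after Llgl1/2 siRNA and 53.4, 39.96 and 47.2 after Yap siRNA, and the one called Rpl37a-ps1 stood the other way, at 1248, 1131 and 995 and 1793, 1722 and 1527. LOC367195 is a ribosomal protein pseudogene in the RefSeq GRCr8 gene table, and Mir3064 and Mir6328 lie inside Ddx5 and Ppp1r18 there. Mir3064 was at 144, 138 and 117 and 14.6, 25.6 and 31.7 FPKM, while its host Ddx5 did not pass the test, with means of 317 and 305. How reads were divided between such genes is not given in the sources used here, so these rows are uncertain.

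Small ribosomal RNAs, which lack poly-A tails, were also higher after Yap siRNA. Rn5s stood at 33.4, 34.7 and 29.6 FPKM after Yap siRNA and 2.84, 5.74 and 5.71 after Llgl1/2 siRNA, and Rn5-8s at 72, 69.7 and 43.7 and 18.9, 14.5 and 15.4. The large ribosomal RNAs Rn18s and Rn28s did not pass the test, with differences of 0.17 ± 0.29 and -0.00 ± 0.27. The part of RNA composition in the results was not tested.

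Genes on opposite sides of the control were defined as those called in the direct comparison and called against the control after each knockdown, with opposite signs. The first class, above the control after Llgl1/2 siRNA and below it after Yap siRNA, held 214 genes (1.98% of those tested) and the second, of the reverse order, 111 (1.03%), together 3.01%. The first held 5 of 22 tested junction genes (Krt18, Krt8, Cdh3, Dsc2 and Ctnna1), 3 of 26 polarity genes (Pard6b, Fat1 and Ptk7) and 1 of 28 cardiac transcription factor genes (Gata4). The second held 3 of 38 extracellular matrix genes (Dcn, Lum and Col18a1), 4 of 38 stress response genes (Atf5, Calr, Hspa5 and Dnajc3) and 1 of 44 NF-kB and chemokine genes (Bcl3). Against the control, 40.2% of genes were called after Llgl1/2 siRNA (22.1% higher and 18.1% lower) and 48.0% after Yap siRNA (20.5% and 27.5%). The 3 groups of libraries did not overlap at all in 199 of the 214 and in 99 of the 111, while over all tested genes such an order without overlap was found for 4.58% and 1.93%. Both changes were usually small. In the first class the medians were 0.37 after Llgl1/2 siRNA and -0.37 after Yap siRNA, and in the second -0.40 and 0.40. Both changes reached 0.5 in 25 and 14 genes and reached 1 in 3 and 2. Both knockdowns were compared with the same 3 control libraries, so the changes are not independent of each other.

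The size of both classes rested on the controls and on the scaling. Leaving out control library 1, 2 or 3 left 110, 128 or 132 genes in the first class, and leaving out Llgl1/2 siRNA library 3 left 141. In the second class control library 1 mattered most, with 70 genes without it. Median-ratio scaling gave 139 and 161 genes, of which 139 and 111 were among those above. At the edge of the first class Naa15, with changes of 0.22 and -0.19, was just inside and Kiaa0895l, at 0.45 and -0.45, just outside. At the edge of the second Hmgb1, at -0.39 and 0.20, was just inside and RT1-CE1, at -0.59 and 0.59, just outside.

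**Figure D2:**
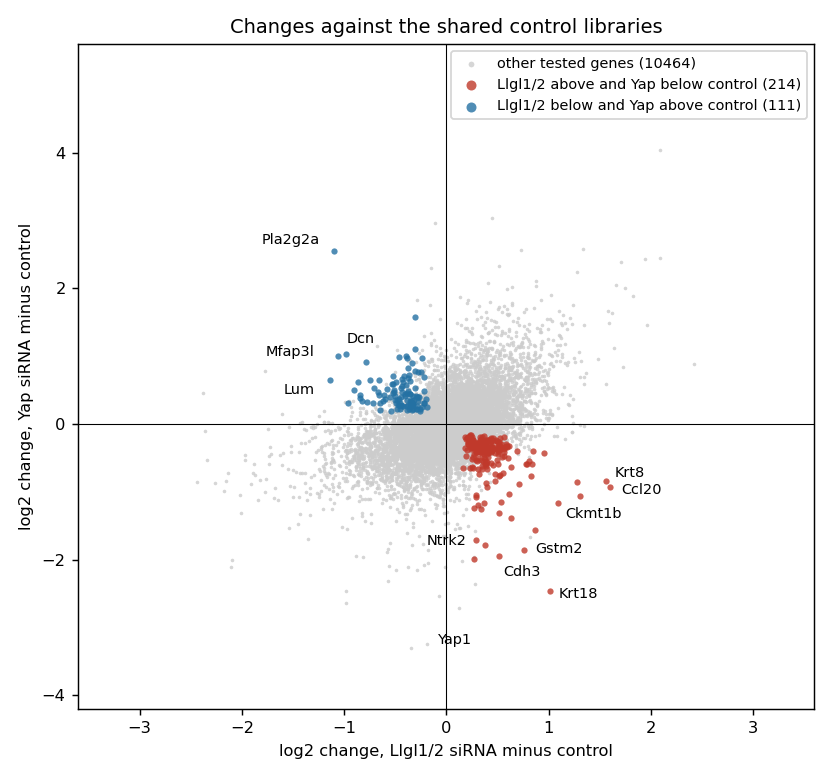
Each point is a tested gene, with its log2 change against the control after Llgl1/2 siRNA (x axis) and after Yap siRNA (y axis), both measured from the same 3 control libraries. The 214 genes above the control after Llgl1/2 siRNA and below it after Yap siRNA lie at the lower right and the 111 of the reverse kind at the upper left, and Myl6l, at 0 in the controls, lies beyond the y axis.

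The promoters of 7 opposite-side genes are shown to make the members concrete, from 250 bases before to 50 after each gene's start, 5′ to 3′ on the gene's strand, from RefSeq on the GRCr8 build. Of the 2 classes, 178 and 93 genes had a promoter in the table. Krt8 (chr7:135010290-135010589, minus strand) and Krt18 (chr7:135035918-135036217, plus strand) are the keratin pair of the first class, and they are near neighbours. Capitals mark an AP-1 and a TATA match in Krt8 and an NF-kB consensus match in Krt18. The AP-1 match of Krt8 lies after the start, at bases 13 to 19. The sequence from the start on opens with atg there, so this match may be coding sequence.

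Krt8: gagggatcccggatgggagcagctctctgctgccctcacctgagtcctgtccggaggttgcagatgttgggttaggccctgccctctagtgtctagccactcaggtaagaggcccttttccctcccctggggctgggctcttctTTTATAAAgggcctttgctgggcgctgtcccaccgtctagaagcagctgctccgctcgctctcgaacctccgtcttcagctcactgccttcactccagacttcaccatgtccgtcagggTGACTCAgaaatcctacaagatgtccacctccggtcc
Krt18: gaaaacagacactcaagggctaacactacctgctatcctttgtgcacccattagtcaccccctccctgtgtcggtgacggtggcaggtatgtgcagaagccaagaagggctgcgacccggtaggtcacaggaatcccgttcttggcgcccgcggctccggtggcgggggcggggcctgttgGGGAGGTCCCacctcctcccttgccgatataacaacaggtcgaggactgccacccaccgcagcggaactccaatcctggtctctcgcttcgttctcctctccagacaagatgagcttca

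Ccl20 (chr9:91836909-91837208, plus strand) and Bcl3 (chr1:88613506-88613805, minus strand) are members of the NF-kB list that lay on opposite sides of the control, in opposite order. Capitals mark the NF-kB consensus match in each. Ccl20 also held a TEAD match, which is not marked.

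Ccl20: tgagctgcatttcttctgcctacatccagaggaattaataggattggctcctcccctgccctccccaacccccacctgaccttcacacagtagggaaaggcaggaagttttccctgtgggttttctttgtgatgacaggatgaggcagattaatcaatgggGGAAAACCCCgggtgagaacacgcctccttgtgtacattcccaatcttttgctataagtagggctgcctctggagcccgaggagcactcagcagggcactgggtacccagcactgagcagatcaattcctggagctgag
Bcl3: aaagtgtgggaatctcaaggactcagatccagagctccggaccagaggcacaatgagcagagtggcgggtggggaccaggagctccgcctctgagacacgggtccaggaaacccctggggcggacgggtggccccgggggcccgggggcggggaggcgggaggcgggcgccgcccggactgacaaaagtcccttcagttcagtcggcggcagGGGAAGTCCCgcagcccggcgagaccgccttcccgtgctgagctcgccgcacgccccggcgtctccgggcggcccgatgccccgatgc

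Hspa5 (chr3:38452766-38453065, plus strand), Calr (chr19:40213117-40213416, plus strand) and Dnajc3 (chr15:102432417-102432716, plus strand) encode chaperones of the endoplasmic reticulum. They are the 3 members of the second class whose promoter held the endoplasmic reticulum (ER) stress response element, searched on both strands as CCAAT, any 9 bases and CCACG, and marked by the capitals. Calr also held an NF-kB consensus match and a TATA match, which are not marked.

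Hspa5: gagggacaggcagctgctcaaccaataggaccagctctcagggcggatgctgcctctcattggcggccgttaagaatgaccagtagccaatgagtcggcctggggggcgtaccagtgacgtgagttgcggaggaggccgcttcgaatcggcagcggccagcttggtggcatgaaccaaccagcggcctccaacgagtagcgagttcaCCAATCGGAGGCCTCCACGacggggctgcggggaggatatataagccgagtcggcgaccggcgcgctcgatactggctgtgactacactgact
Calr: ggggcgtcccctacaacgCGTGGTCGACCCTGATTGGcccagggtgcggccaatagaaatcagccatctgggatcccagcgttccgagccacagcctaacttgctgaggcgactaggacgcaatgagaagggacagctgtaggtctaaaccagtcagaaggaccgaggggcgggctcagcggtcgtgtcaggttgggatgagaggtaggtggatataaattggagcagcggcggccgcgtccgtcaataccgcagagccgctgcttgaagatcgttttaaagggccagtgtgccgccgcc
Dnajc3: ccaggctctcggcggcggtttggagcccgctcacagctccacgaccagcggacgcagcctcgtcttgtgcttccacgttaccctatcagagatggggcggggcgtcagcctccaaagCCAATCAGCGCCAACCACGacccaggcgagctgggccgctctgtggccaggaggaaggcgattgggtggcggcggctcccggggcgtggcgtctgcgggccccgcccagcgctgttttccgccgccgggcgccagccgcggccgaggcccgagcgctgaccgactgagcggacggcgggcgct

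Searched motifs were 6, chosen after the opposite-side genes had been seen, so their shares are descriptions only. The ER stress response element was in 3 of 93 promoters of the second class (3.23%) and in 0 of 178 of the first, against 16 of 8782 tested genes (0.182%) and 21 of all 27457 promoters (0.0765%). Those 16 genes did not move one way in the direct comparison, since 5 were lower after Llgl1/2 siRNA, 4 higher and 7 not called, among the last Xbp1 and Hsp90b1. The TEAD motif GGAATG was in 14.0% of the first class, 6.45% of the second, 11.2% of tested genes and 13.9% of all promoters. The AP-1 motif TGANTCA was in 4.49%, 4.3%, 4.87% and 7.33% in the same order, and the TATA motif TATAAA in 9.55%, 5.38%, 6.99% and 14.3%. The NF-kB consensus was in 11.2%, 10.8%, 9.87% and 7.6%, and the CArG box in 0.562%, 2.15%, 1.21% and 1.64%. A match is a stretch of letters and not a shown binding site.

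Of 22 tested junction genes 11 were higher and 5 lower after Llgl1/2 siRNA, with a median difference of 0.23 against 0.08 over all tested genes. In the first opposite-side class were 5 of the 22, against 1.98% of all genes. The list was chosen with earlier results known and counts the keratins Krt18 and Krt8 as members, so this share is a description only. Krt18 stood at 29.1, 26.5 and 28.8 FPKM after Llgl1/2 siRNA, 13.4, 13.5 and 13.4 in the controls and 2.37, 1.97 and 0.79 after Yap siRNA, and Krt8 at 10.5, 6.29 and 10.3, 2.59, 2.7 and 1.8 and 1.21, 0.87 and 0.58. The 3 groups did not overlap for either keratin. Krt18 was 1.01 ± 0.18 above the control after Llgl1/2 siRNA and -2.46 ± 0.18 after Yap siRNA, and the corresponding changes of Krt8 were 1.56 ± 0.19 and -0.84 ± 0.19. Dsc2, which encodes a desmocollin of the desmosome, had 16.5, 17 and 16.5, 9.15, 10.8 and 9.44 and 4.59, 4.92 and 5.0 FPKM in the same order, again without overlap. Ctnna1, the alpha-catenin gene that ties cadherins to actin, had the highest level of the 5, with means of 541 ± 14.1, 441 ± 7.09 and 355 ± 19.5 (SD, n = 3), and the smallest direct difference, 0.61 ± 0.07.

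Krt8 and Krt18 are also markers of the epicardium and mesothelium, the covering layer of the heart. The summed level of the 10 such markers in the table was 48.8 to 60.8 FPKM after Llgl1/2 siRNA, 28.8 to 38.4 in the controls and 14.6 to 20.6 after Yap siRNA. Without the 2 keratins the other 8 markers summed to 15.9 to 21.2, 13.6 to 22.1 and 12.1 to 17.0 FPKM, ranges that overlapped. Of the 8 tested, 3 were higher after Llgl1/2 siRNA and 1 lower, and the third higher one was Aldh1a1, a retinoic acid synthesis gene. Wt1, a defining marker, did not pass the test, with 2.69, 2.21 and 2.06 and 2.01, 1.84 and 1.57 FPKM, and Krt19 and Bnc1 were below 1 FPKM in every library. In bulk RNA, fewer cells of a type and less RNA per cell cannot be told apart, and the part of epicardial cells in the keratin result was not tested.

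Of 26 tested genes of apicobasal and planar polarity, with Llgl1 and Llgl2 left out, 15 were higher after Llgl1/2 siRNA and none lower, with a median difference of 0.45. The shares over all tested genes were 28.0% and 19.0%. The count was 15 and 14 higher with quantile normalization and median-ratio scaling, again with none lower. Pard6b encodes the Par6 protein that holds atypical protein kinase C in the apical Par complex, the complex that Lgl opposes in the fly. It stood at 10.2, 8.21 and 8.37 FPKM after Llgl1/2 siRNA, 4.79, 6.01 and 5.7 in the controls and 2.39, 1.99 and 2.15 after Yap siRNA, with no overlap between groups. Crb3 encodes the apical Crumbs protein, and its Llgl1/2 siRNA libraries stood apart at 3.91, 2.96 and 2.72 FPKM, while Yap siRNA libraries at 0.51, 1.22 and 0.69 overlapped controls at 0.98, 0.89 and 1.18. Prkcz, an atypical protein kinase C gene, was higher by 0.79 ± 0.14 at means of 1.45 and 0.42 FPKM. Of the giant cadherin and planar polarity genes, Fat1 had 36.5, 42.8 and 40.9, 24.9, 28.3 and 31.6 and 17.03, 18.8 and 21.8 FPKM, in the order Llgl1/2, control and Yap siRNA. Ptk7, a planar polarity receptor gene, averaged 14.4 ± 0.181, 11.5 ± 1.11 and 8.53 ± 0.672. Both were in the first opposite-side class, and Prickle1, a cytoplasmic planar polarity gene, was higher by 0.93 ± 0.09 without a call against the control after Llgl1/2 siRNA.

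Of 22 tested Hippo pathway components 12 were higher after Llgl1/2 siRNA and none lower (median 0.27), but with median-ratio scaling 9 were higher and 2 lower. Without that scaling 28.0% of all tested genes were higher and 19.0% lower. Of 24 tested YAP/TAZ targets 12 were higher and 4 lower (median 0.23), and no member of either list was in an opposite-side class. Both lists had medians below the control in both knockdowns, at -0.04 and -0.27 after Llgl1/2 siRNA and at -0.39 and -0.69 after Yap siRNA. Tgfb2 stood at 94.1, 94.1 and 96.4 FPKM after Llgl1/2 siRNA and 31.1, 28.2 and 29.9 after Yap siRNA (1.64 ± 0.08, limma, adjusted p = 6e-09), with controls at 93.5, 107 and 88.4. Lats2 and Amotl2, which encode a Hippo kinase and an angiomotin that hold YAP in check and are themselves YAP targets, were higher by 1.09 ± 0.07 and 0.84 ± 0.07. The matricellular genes Ctgf and Cyr61, the usual readouts of YAP activity, averaged 488 ± 41.8 and 173 ± 12.3 FPKM after Llgl1/2 siRNA and 255 ± 22.9 and 95.3 ± 9.2 after Yap siRNA, with controls at 691 ± 92.1 and 219 ± 29.6. Tead1, the gene of a DNA-binding partner of YAP, was higher by 0.71 ± 0.20. Nt5e, the ecto-nucleotidase gene on the target list, ran the other way at -0.81 ± 0.13.

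Contractile genes went both ways, and the myosin heavy chain genes split by isoform. Of 31 tested sarcomere genes 9 were higher and 10 lower after Llgl1/2 siRNA, and the median of -0.08 turned to 0.04 with quantile normalization. Actin and slow myosin were on the higher side. Myh7, the beta or slow myosin heavy chain gene, stood at 1850.1, 1800.1 and 1611 FPKM after Llgl1/2 siRNA and 814, 947 and 854 after Yap siRNA. Against the control Myh7 was lower in both knockdowns, at -0.39 ± 0.09 and -1.40 ± 0.09. Actc1, the cardiac actin gene, averaged 8690 ± 862 and 5350 ± 598. Fast myosin and the adult troponin stood on the lower side. Myh6, the alpha or fast myosin heavy chain gene, had 2393, 2781 and 2673 against 4765, 6102 and 5676 FPKM, and Tnni3, the adult cardiac troponin I gene, 2511, 2389 and 2409.8 against 4149, 4715 and 3483. In each of these 4 genes the libraries of the 2 knockdowns did not overlap. Tnni1, a troponin I gene of the fetal and stress list, was on the same side as Tnni3, at -0.44 ± 0.07, so troponin I did not split. Myl7 and Tcap, an atrial light chain and a titin cap gene, were lower, at -1.16 ± 0.14 and -1.10 ± 0.10. Csrp3, which encodes the muscle LIM protein of the Z-disc, was the one sarcomere gene in an opposite-side class, with 1699, 1341 and 1235, 1022, 1163 and 1082 and 740.5, 682 and 735 FPKM after Llgl1/2, control and Yap siRNA.

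Fetal and stress genes of the myocyte were mostly higher after Llgl1/2 siRNA, in 13 of 19 tested, with 3 lower and a median of 0.55. Against the control the list's medians were -0.02 after Llgl1/2 siRNA and -0.35 after Yap siRNA. Besides Acta1 and Myh7, which this list shares with the sarcomere list, Cryab, a small heat shock protein gene, averaged 2150 ± 133 FPKM after Llgl1/2 siRNA and 1020 ± 144 after Yap siRNA. Nppa, the atrial natriuretic peptide gene, averaged 11000 ± 1290 and 7470 ± 128 (0.55 ± 0.09, limma, adjusted p = 0.00019). Uchl1, a deubiquitinase gene, was in the first opposite-side class at 71.3, 60.7 and 70.9, 55.6, 51.1 and 52.4 and 38.3, 31.6 and 40.1 FPKM. On the lower side were Hspb7, a cardiac small heat shock protein gene, at -0.87 ± 0.08, and Ddit3, a stress-induced transcription factor gene, at -0.64 ± 0.10. Tnni1, a troponin I gene, was also lower, at -0.44 ± 0.07.

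Calcium handling and ion channel genes went both ways, with more lower than higher members. Of 34 tested calcium handling and ion channel genes 7 were higher and 12 lower after Llgl1/2 siRNA, with a median of -0.09. Over all tested genes 28.0% were higher and 19.0% lower. Against the control the list's medians were above 0 in both knockdowns, at 0.40 after Llgl1/2 siRNA and 0.58 after Yap siRNA. Hrc and Trdn, which encode proteins of the calcium store and its release unit, had 38.1, 46.3 and 45.1 against 128, 142 and 131 FPKM and 16.9, 22.8 and 20.2 against 58.4, 73.5 and 53.4. Both differences exceeded 1.5 on the log2 scale, at -1.61 ± 0.10 and -1.58 ± 0.12, and the groups did not overlap. Atp2a2 and Pln were also lower, at -0.28 ± 0.09 and -0.22 ± 0.08. The calcium genes Slc8a1, Cacnb2, Cacna2d1 and Cacna1g ran the other way, higher by 0.46 ± 0.08, 0.49 ± 0.08, 0.66 ± 0.12 and 0.50 ± 0.10. Ryr2 and Casq2 did not pass the test, at -0.08 ± 0.13 and 0.00 ± 0.07. Mb, the myoglobin gene and a marker of working cardiomyocytes, stood at 157, 158 and 184 FPKM after Llgl1/2 siRNA and 543, 515 and 535 after Yap siRNA. A pair of potassium channel genes lay on opposite sides of the control in opposite order. Kcnq1, of the slow delayed rectifier, averaged 26 ± 0.533, 19.4 ± 1.92 and 16.3 ± 0.511 FPKM after Llgl1/2, control and Yap siRNA, and Kcnd2, of the transient outward current, 1.29 ± 0.289, 2.71 ± 0.175 and 4.38 ± 0.39.

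Of 31 genes of fatty acid uptake and oxidation 6 were higher and 11 lower, though the median of 0.02 turned to -0.07 with median-ratio scaling. Acsl1 and Hadh, of fatty acid activation and beta-oxidation, averaged 56.1 ± 8.81 and 52.9 ± 5.02 FPKM after Llgl1/2 siRNA and 100 ± 10.1 and 96.3 ± 12.6 after Yap siRNA. Cd36, the fatty acid transporter gene, ran the other way at 0.31 ± 0.07. Respiratory chain genes had 6 higher and 3 lower of 29, which became 2 and 3 with median-ratio scaling, so no direction is given. Among glycolysis genes, with 7 higher and 8 lower of 24, Ldhb, the heart-type lactate dehydrogenase gene, was in the second opposite-side class. It stood at 474, 481 and 463 FPKM after Llgl1/2 siRNA, 687, 618 and 745 in the controls and 1104, 1084 and 1138 after Yap siRNA, without overlap.

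Within the first class the smaller of both changes was largest for Slc16a12 and Ckmt1b. These genes, which in human encode a creatine transporter and the ubiquitous mitochondrial creatine kinase, both lay at least 1 away from the control on each side (log2 scale). Slc16a12 had 18.5, 19.3 and 20.01 FPKM after Llgl1/2 siRNA, 8.83, 6.87 and 9.98 in the controls and 3.09, 3.03 and 3.57 after Yap siRNA, and Ckmt1b had 64.2, 60.9 and 62.3, 26.7, 24.2 and 23.4 and 13.97, 8.74 and 11.6. The direct differences were 2.26 ± 0.12 and 2.37 ± 0.12 (limma, adjusted p = 1.4e-08 and 1.2e-08), and no group overlapped another.

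**Figure D3:**
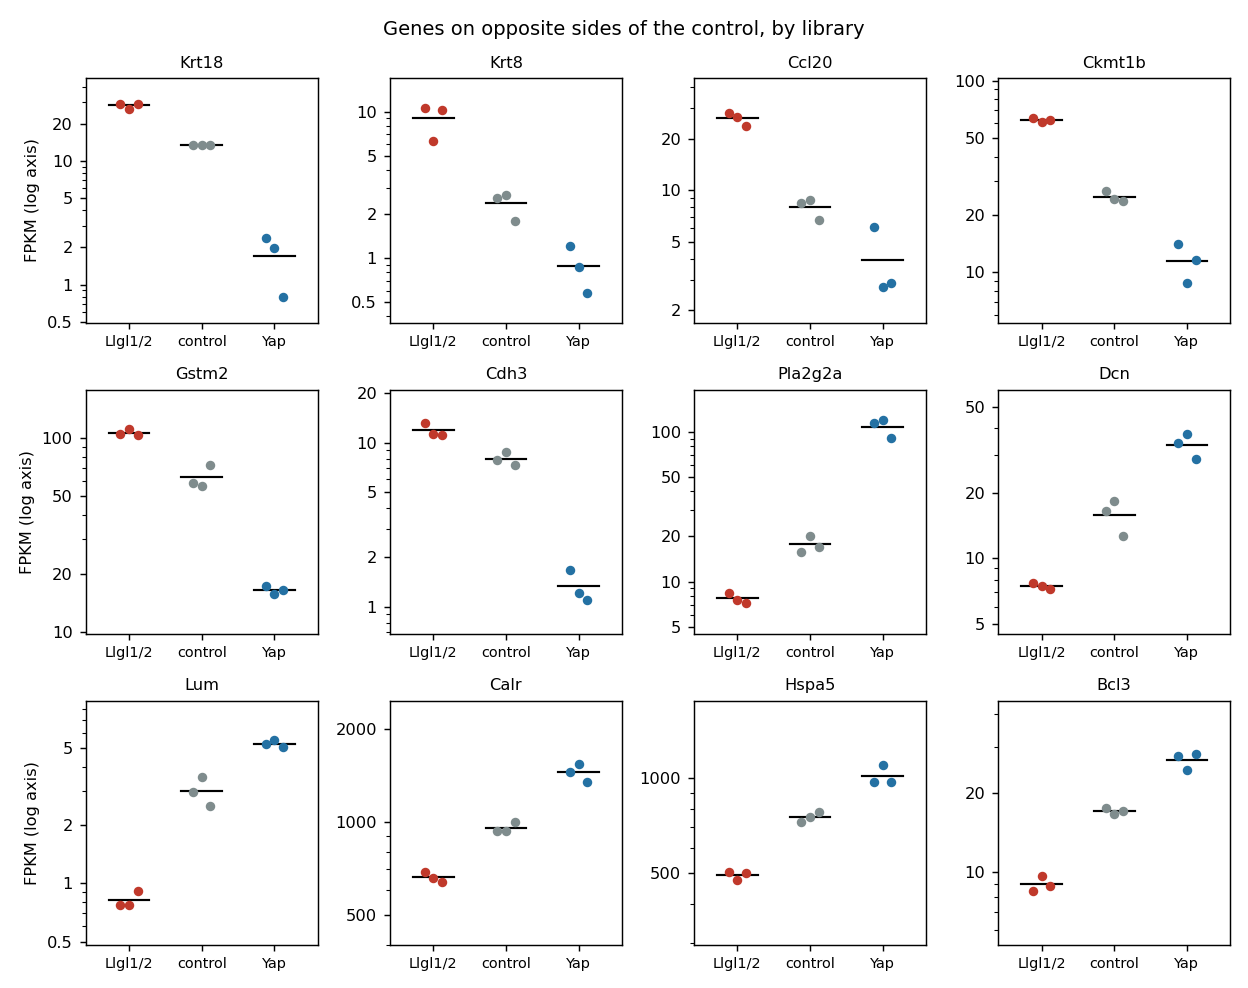
FPKM (log axis) of 12 opposite-side genes in each library, with a line at each group's mean. In the first 6 panels the Llgl1/2 siRNA libraries are highest and the Yap siRNA libraries lowest, in the last 6 the order is reversed, and the controls lie between in every panel.

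Glutathione and redox genes went both ways, 13 higher and 9 lower of 32, against 28.0% and 19.0% of all tested genes. Gstm2, a mu-class glutathione transferase gene with close relatives in the genome, stood at 105, 110.5 and 103 FPKM after Llgl1/2 siRNA, 58.3, 56.4 and 72.8 in the controls and 17.2, 15.7 and 16.5 after Yap siRNA, a direct ratio of means of 6.44. Txnrd1, the cytosolic thioredoxin reductase gene, was in the same class with smaller changes, 0.19 ± 0.07 and -0.23 ± 0.07. Mt2A, a metallothionein gene, ran the other way, with 60.7, 49.4 and 57.2 FPKM after Llgl1/2 siRNA and 209, 197 and 185 after Yap siRNA. Gpx3, the secreted glutathione peroxidase gene, was higher after Llgl1/2 siRNA by 0.90 ± 0.10.

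Other genes of the first class with at least 0.5 on both sides included membrane and signalling proteins. Epn3, an epsin of endocytosis, averaged 26.7 ± 2.66, 10.4 ± 0.86 and 5.34 ± 1.02 FPKM after Llgl1/2, control and Yap siRNA. Aqp1, the water channel gene, averaged 53.5 ± 5.04, 36.7 ± 2.53 and 16.2 ± 2.71. Crym, which encodes a thyroid hormone binding protein, had a direct difference of 1.42 ± 0.13, Vash2, a vasohibin gene, 1.37 ± 0.10, Pcbp4, an RNA-binding protein gene, 1.26 ± 0.12, and Fignl1, an AAA ATPase gene, 1.37 ± 0.11. The cardiac transcription factor gene Gata4 had 185, 187 and 187, 127, 126 and 139 and 109, 91.9 and 118 FPKM, and within its list of 28 factors 9 were higher and 3 lower. Irx3 and Hopx, a homeobox and an atypical homeobox gene, were on the lower side at -1.14 ± 0.08 and -1.01 ± 0.17.

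Of 40 tested genes of focal adhesions, actin and SRF/MRTF targets 22 were higher after Llgl1/2 siRNA and 5 lower (median 0.27), and 18 and 7 with median-ratio scaling. Acta2, the smooth muscle actin gene, was below the control in both and lowest after Yap siRNA, with 1294, 1099.7 and 1179, 2361, 2249 and 2449 and 453, 402 and 425 FPKM after Llgl1/2, control and Yap siRNA. The integrin genes Itga6 and Itga5 and the calponin gene Cnn1 were in the first opposite-side class, with direct differences of 0.81 ± 0.09, 0.58 ± 0.08 and 0.84 ± 0.09. Pdlim5 and Zyx, which encode LIM proteins of the Z-disc and of focal adhesions, were higher by 0.88 ± 0.08 and 0.65 ± 0.07. The 14 markers of smooth muscle and pericytes, of which Acta2 and Cnn1 are members, summed to 2860 to 3350 FPKM after Llgl1/2 siRNA, 4050 to 4240 in the controls and 1790 to 1890 after Yap siRNA, and without Acta2 and Cnn1 to 1690 to 1970, 1720 to 1750 and 1350 to 1420. Of the 14 genes 6 were higher and 1 lower after Llgl1/2 siRNA, and their part in the actin result was not tested.

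G1/S genes were mostly higher after Llgl1/2 siRNA than after Yap siRNA, and mitotic and sterol genes had more higher than lower members. Over all tested genes 28.0% were called higher and 19.0% lower. Of 29 tested G1/S and DNA replication genes 20 were higher and 1 lower, with a median of 0.49. Medians against the shared control were -0.34 after Llgl1/2 siRNA and -0.72 after Yap siRNA. E2f1, the gene of the G1/S transcription factor, stood at 11.3, 10.7 and 8.91 FPKM after Llgl1/2 siRNA and 4.57, 3.94 and 4.13 after Yap siRNA, with controls at 11.1, 10.9 and 10.96 that overlapped the Llgl1/2 siRNA libraries. Mcm5, of the replicative helicase, averaged 24.1 ± 2.04 and 12.7 ± 2.15, with controls at 30.9 ± 1.67, and Ccnd2, the cyclin D2 gene, 61.8 ± 3.08 and 35.9 ± 5.92, with controls at 68.6 ± 7.48. Of 30 genes of G2/M, mitosis and cytokinesis 13 were higher and none lower (median 0.23), but median-ratio scaling gave 8 and 2. Cdk1, the mitotic kinase gene, stood at 45, 39.6 and 38.9 and 33.6, 31.3 and 34.4 FPKM, closer to each other than to the controls at 75.5, 73 and 68.7. Of 24 sterol synthesis genes 10 were higher and 1 lower, and the list's medians against the control were -0.51 after Llgl1/2 siRNA and -0.72 after Yap siRNA.

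Inflammatory genes leaned strongly to Yap siRNA. Of 44 tested NF-kB and chemokine genes 34 were lower after Llgl1/2 siRNA and 1 higher, with a median difference of -0.68. Against the control the list's median was -1.13 after Llgl1/2 siRNA and -0.47 after Yap siRNA, so the list lay below the control in both by its median. The monocyte chemokine gene Ccl7 stood at 142, 132 and 118 FPKM after Llgl1/2 siRNA, 321, 317 and 253 after Yap siRNA and 457, 414 and 355 in the controls. Nos2, the inducible nitric oxide synthase gene, averaged 2.03 ± 0.27, 6.6 ± 0.891 and 12.5 ± 1.06 FPKM in that order, and Slpi, a protease inhibitor gene, 1.51 ± 0.375, 6.52 ± 0.621 and 12.6 ± 2.22.

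The exception was Ccl20, the chemokine gene for CCR6-bearing lymphocytes, which stood at 28.02, 26.8 and 23.8 FPKM after Llgl1/2 siRNA, 8.42, 8.74 and 6.75 in the controls and 6.15, 2.72 and 2.9 after Yap siRNA (2.53 ± 0.20, limma, adjusted p = 1.3e-06). Yap siRNA library 1 was higher than the other 2 and still below every control. Bcl3, which encodes a nuclear IκB protein that modulates NF-kB, had the reverse order, with 8.4, 9.58 and 8.84, 17.5, 16.7 and 16.98 and 27.5, 24.5 and 28.1 FPKM. Its groups did not overlap, and its direct difference was -1.48 ± 0.09 (limma, adjusted p = 3.4e-08). Socs3 and Zc3h12a, which encode feedback inhibitors of cytokine signalling, were also in the second class, with changes of -0.96 and 0.30 for Socs3 and -0.28 and 0.40 for Zc3h12a.

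Of 18 secreted acute-phase and antimicrobial genes 15 were lower after Llgl1/2 siRNA and none higher, with a median of -0.77. Against the control the list's medians were -0.88 after Llgl1/2 siRNA and -0.04 after Yap siRNA. After Yap siRNA Pla2g2a, Reg3b, Hamp, Clu and Hp were called above the control and C3, Lcn2, Cd14 and Ptx3 below it. Hamp, which encodes the iron hormone hepcidin, was above the control after both, at 161, 139 and 148 FPKM after Llgl1/2 siRNA and 305, 283 and 285 after Yap siRNA against 47.5, 57.2 and 83.2. The complement genes C3, C1s and C1r were lower, at -0.99 ± 0.10, -1.31 ± 0.14 and -0.88 ± 0.10. Of 43 interferon-stimulated genes 23 were lower and 4 higher (median -0.28). Their medians against the control were -0.46 after Llgl1/2 siRNA and -0.34 after Yap siRNA. Among the lower genes were Gbp5, a guanylate-binding protein gene, at -1.29 ± 0.11, and B2m, the light chain of class I antigen-presenting molecules, at -0.61 ± 0.09. Irf9, a subunit of the interferon-activated transcription factor, was one of the 4 higher genes, at 0.61 ± 0.07.

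**Figure D4:**
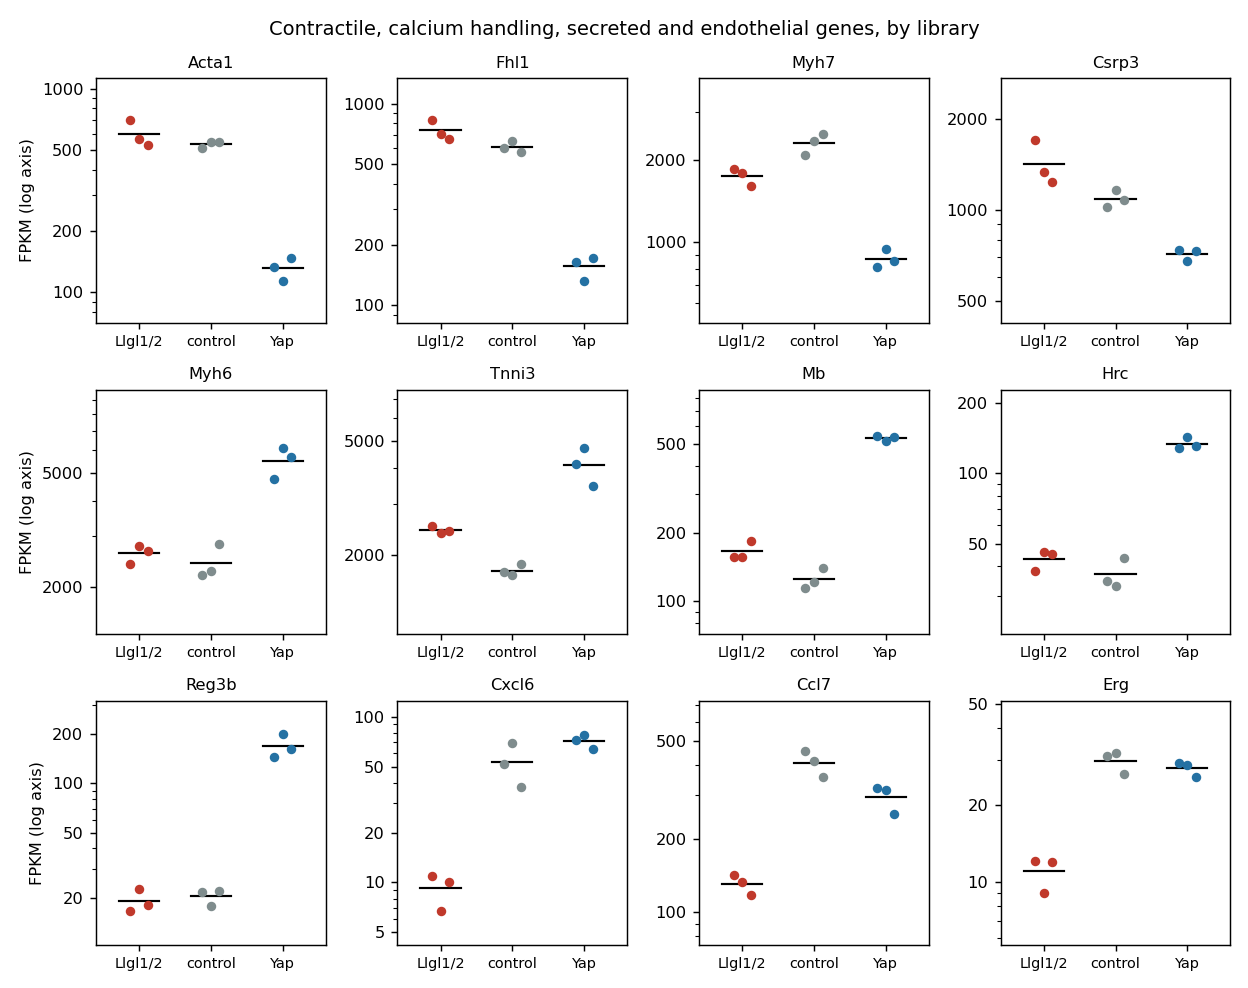
FPKM (log axis) of 12 genes of the direct comparison in each library, with a line at each group's mean. Acta1, Fhl1, Myh7 and Csrp3 are lowest after Yap siRNA, Myh6, Tnni3, Mb, Hrc and Reg3b are highest there, and Cxcl6, Ccl7 and Erg are lowest after Llgl1/2 siRNA.

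Most endothelial markers were higher after Yap siRNA, and most leukocyte markers did not pass the test, which 47.0% of all tested genes passed. Of 19 tested endothelial markers 14 were lower after Llgl1/2 siRNA than after Yap siRNA and none higher (median -0.47). Erg, the endothelial transcription factor gene, stood at 12.1, 9.02 and 11.9 FPKM after Llgl1/2 siRNA, 29.3, 28.8 and 25.7 after Yap siRNA and 31.2, 32.1 and 26.4 in the controls. The 20 endothelial markers summed to 347 to 374 FPKM after Llgl1/2 siRNA, 682 to 801 in the controls and 510 to 588 after Yap siRNA, and Cldn5 was below 1 FPKM in every library. Of 18 tested markers of macrophages and other leukocytes 6 were lower and none higher, and the 21 listed summed to 223 to 292, 306 to 393 and 287 to 388 FPKM, with the T cell marker Cd3e at 0 in every library. After Yap siRNA the leukocyte sums overlapped the controls, and single markers went both ways. Cd74, Cd68 and Tyrobp were above the control, at 0.96 ± 0.16, 0.55 ± 0.15 and 0.40 ± 0.14. Fcgr2b, Cd14, C1qb, C1qc, Itgam, Laptm5 and Csf1r were below it, with changes from -0.80 to -0.42, and the list's median was -0.23. The part of these cells in the inflammatory differences was not tested.

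Of 38 tested extracellular matrix genes 15 were lower after Llgl1/2 siRNA and 6 higher, and 3 were in the second opposite-side class against 1.03% of all genes. Decorin, lumican and prolargin are small leucine-rich proteoglycans that bind collagen. Dcn stood at 7.7, 7.48 and 7.21 FPKM after Llgl1/2 siRNA, 16.6, 18.4 and 12.7 in the controls and 33.9, 37.5 and 28.6 after Yap siRNA, and Lum at 0.77, 0.77 and 0.91, 2.97, 3.55 and 2.52 and 5.23, 5.5 and 5.05, below 1 FPKM in every Llgl1/2 siRNA library. Prelp, which was on no list, averaged 3.75 ± 0.662, 7.16 ± 0.378 and 14.5 ± 2.55. All 3 had groups that did not overlap. Col18a1, the collagen gene from which endostatin is cut, averaged 122 ± 5.1, 175 ± 1.84 and 240 ± 3.37, and Eln, the elastin gene, was lower, at -0.98 ± 0.06. Other small proteoglycan genes did not share this order, since Ogn ran the other way at 1.0 ± 0.12 and Bgn and Fmod did not pass the test, at -0.13 ± 0.13 and -0.02 ± 0.16. Dcn and Lum are also fibroblast markers. The 15 fibroblast markers summed to 378 to 468 FPKM after Llgl1/2 siRNA, 389 to 540 in the controls and 436 to 534 after Yap siRNA, ranges that overlapped also without Dcn and Lum, with 1 of 13 tested higher and 5 lower.

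Of 38 tested genes of the unfolded protein and integrated stress responses 7 were higher and 10 lower after Llgl1/2 siRNA, and 4 were in the second opposite-side class. Over all tested genes the shares were 28.0%, 19.0% and 1.03%, so the list as a whole had no clear direction. Calr, which encodes the calcium-binding chaperone calreticulin, stood at 689, 655 and 639 FPKM after Llgl1/2 siRNA, 935, 932 and 997 in the controls and 1450.5, 1538 and 1341 after Yap siRNA. Hspa5, the gene of the chaperone BiP, stood at 505, 474 and 502, 727, 756 and 779.9 and 972, 1101 and 971. The 3 groups did not overlap for either, and the direct differences were -1.12 ± 0.07 and -1.04 ± 0.07 (limma, adjusted p = 9.3e-08 and 2.1e-07). Dnajc3, a co-chaperone of BiP, moved less, with a direct difference of -0.44 ± 0.07, and Atf5, a stress-induced transcription factor gene, more, with -1.20 ± 0.07. Of other chaperone genes on the list, Pdia3 was higher by 0.24 ± 0.07, and Hsp90b1, Canx, Pdia4, Pdia6 and Dnajb11 did not pass the test, with differences from -0.16 to 0.17. Some stress response genes ran the other way. Dnajb9, another co-chaperone gene of BiP, was higher by 0.61 ± 0.08, and Asns and Mthfd2, metabolic targets of the integrated stress response, by 0.54 ± 0.08 and 0.64 ± 0.09.

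Ribosomal protein genes leaned to Yap siRNA, with 17 of 30 lower after Llgl1/2 siRNA and 4 higher (median -0.27). With quantile normalization the counts were 8 and 5 and with median-ratio scaling 19 and 0, and many of these genes have pseudogene copies that can share reads. Rps12 and Rps7 were in the second opposite-side class, with means of 685 ± 40.6, 831 ± 35.4 and 1420 ± 206 FPKM for Rps12 and 850 ± 95.6, 1200 ± 131 and 1590 ± 156 for Rps7 after Llgl1/2, control and Yap siRNA. Further members of the second class were Mfap3l, a microfibril-associated protein gene, with 5.14, 5.51 and 5.53, 10.2, 13.03 and 14.02 and 25.5, 27.1 and 24.4 FPKM, and Net1, an exchange factor for RhoA, with a direct difference of -1.40 ± 0.10. Clint1, a clathrin adaptor gene, differed by -1.11 ± 0.09, and Apbb1ip, an adaptor of integrin activation, by -1.41 ± 0.12.

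Of 35 tested growth factors, receptors and binding proteins 4 were higher and 14 lower after Llgl1/2 siRNA (median -0.22). All tested genes had 28.0% higher and 19.0% lower. The higher 4 included Fgfr2, a fibroblast growth factor receptor gene, with 6.14, 7.66 and 7.65 FPKM after Llgl1/2 siRNA and 1.59, 1.49 and 1.18 after Yap siRNA, and Hbegf, a ligand of the EGF receptor, at 1.14 ± 0.13. Vegfa, the vascular growth factor gene, was lower, at -0.46 ± 0.06, and Igfbp3, the gene of a binding protein of insulin-like growth factors, was lower, at -1.51 ± 0.23. Of 29 genes of the TGF-beta and BMP pathways 9 were higher and 10 lower. The ligand genes split, since Tgfb3 was higher by 1.32 ± 0.11 and Tgfb1 lower, at -0.62 ± 0.09, and Bmp7 was in the first opposite-side class with a direct difference of 0.63 ± 0.09. Of 22 Wnt and Notch genes 5 were higher and 4 lower, with the receptor gene Fzd2 at 1.47 ± 0.10 and the secreted Wnt modulator gene Sfrp2 at -1.76 ± 0.16.

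**Figure D5:**
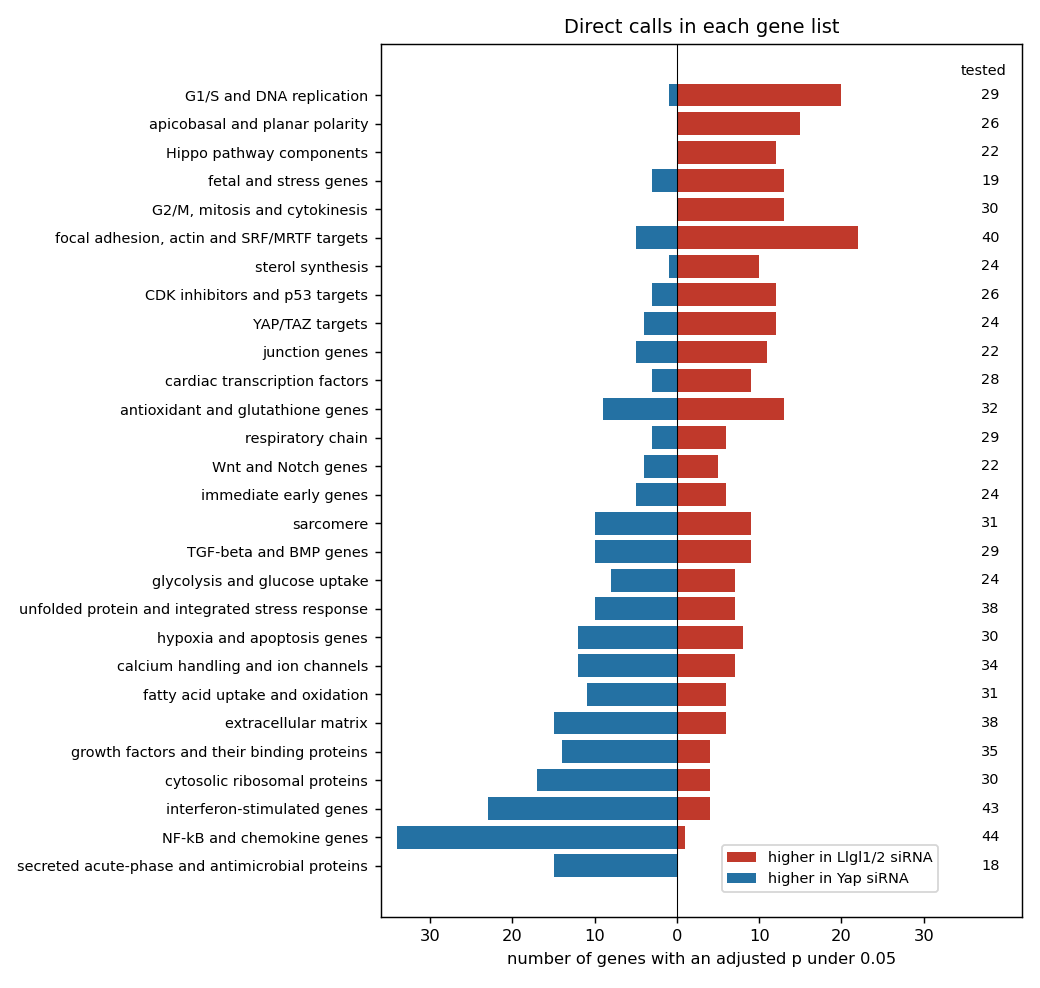
Number of called genes per gene list in the direct comparison, to the right where higher after Llgl1/2 siRNA and to the left where higher after Yap siRNA, with the number tested at the edge. G1/S genes (20 and 1) stand at the top and NF-kB and chemokine genes (1 and 34) and secreted acute-phase genes (0 and 15) at the bottom, against 28.0% and 19.0% of all tested genes.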

How the data were processed

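The authors deposited 1 table of FPKM values, rounded to 2 decimals, with a column per library, and 1 further FPKM column, which matches no single sample by name, was not used. Per the submitters' processing notes, Bowtie2, HISAT and the rn6 genome were used, with no version or role given, and the counting tool and annotation are not given in the sources used here. Per the labels, libraries were made with a low-input poly-A BGISEQ-500 protocol. The file has no counts, so depth and counting error are unknown and no test on counts was run. Of 14636 genes, 3847 below 1 FPKM in all but at most 2 libraries were removed. For 31 genes the symbol was missing or had become a date, and the RefSeq GRCr8 table gave it for 29 through the gene ID. That build differs from rn6, so it was used for names, neighbours and promoter sequences only.

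All 9 libraries entered 1 limma fit (version 3.58.1, R 4.3.3) on log2(FPKM + 1), with a mean per group, variances following the mean level and robust to outlying genes, which leaves 6 degrees of freedom. P-values were adjusted by Benjamini-Hochberg over the 10789 tested genes, two-sided, with a threshold of 0.05. Ratios are of group means of FPKM. Further steps ran in Python 3.11.15 with numpy 2.4.6, pandas 2.3.3 and matplotlib 3.10.9, and the fit was tested on simulated data. Genes named are the targets, the 12 largest direct differences each way (mean of at least 5 FPKM, no overlap), the 15 opposite-side genes per class with the largest smaller change, and from each of 28 gene lists and 8 marker lists up to 4 by smallest p plus opposite-side members. Others, such as Lpar3, Socs3, Mthfd2 or Cdk1 and genes set beside a named one, were added after their values were seen. Members and lists were chosen with earlier results of these data known.

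Same-numbered Llgl1/2 and Yap siRNA libraries deviated together from their group means (correlations of 0.236, 0.119 and 0.119 across genes, all over 0.1), so the replicate numbers of the labels were taken to pair those libraries. Against the controls the same correlations ran from 0.0101 to 0.171 and not all passed 0.1. The main fit had no term for this pairing, so the reported SE, p-values and counts do not account for it. Only the replicate block, an alternative, used it. Alternatives were other pseudocounts, filters, scalings, thresholds, a replicate block, only the 6 libraries compared, and leaving out each library.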

Additional observations from a re-analysis of the deposited data

How the results depend on the processing

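The count of 5070 direct calls stayed within 1.5 times under every pseudocount, filter, scaling and left-out library tried (4176 to 5054 with 1 library left out), and was 355 at a log2 difference of at least 1. The opposite-side counts moved more. The class above the control after Llgl1/2 siRNA went from 214 to 139 with median-ratio scaling, 71 at an adjusted p of 0.01, 3 at log2 changes of at least 1, and 494 where the control libraries had only to lie strictly between, with no test. It ran from 110 to 237 with 1 library left out. The reverse class went from 111 to 45, 2 and 208 under the last 3 of these, and from 70 to 131 with 1 library left out. With the replicate block, in which replicate number pairs the libraries, there were 5452 direct calls and 269 and 148 opposite-side genes, of which 5041, 214 and 110 were among those reported, and no other call was changed beyond 1.5 times. Of 2837 values of 168 named genes over 17 settings, 2820 kept their side of the threshold and direction, 9 lost the call (Llgl2 and Upk1b), 8 gained it (Hbb and Hba1) and 0 reversed. Most of these genes were chosen for a large difference or a small p, so they were likely to keep the call. These values concern the direct comparison only, not the opposite-side classes. Of 1224 list counts 1155 stayed within 1.5 times. The causes of these shifts were not tested. The unknown depth limits genes near 1 FPKM most, such as Lum, Krt8 and Kcnd2.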

Other observations

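Cell cycle inhibitors and p53 targets leaned to Llgl1/2 siRNA, with 12 of 26 tested genes higher and 3 lower, and a median difference of 0.27. Over all tested genes 28.0% were higher and 19.0% lower. Tp53inp1, a p53-induced stress gene, averaged 22.4 ± 2.63 FPKM (SD, n = 3) after Llgl1/2 siRNA, 11.6 ± 1.59 after Yap siRNA and 6.1 ± 1.21 in the controls. Cdkn1a, the p21 gene, was higher by 0.46 ± 0.08 (SE) on the log2 scale, while Cdkn1c, another inhibitor of cyclin-dependent kinases, was lower, at -0.94 ± 0.14, and Perp, a p53 target of desmosomes, was lower, at -0.74 ± 0.08. Of 30 hypoxia and apoptosis genes 8 were higher and 12 lower. Bcl2l1, which encodes the survival protein Bcl-xL, had 61.9, 65.1 and 63.8 FPKM after Llgl1/2 siRNA and 36.04, 29.9 and 40.8 after Yap siRNA, with controls at 56.9, 57.9 and 59.5.

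Immediate early genes split evenly, with 6 of 24 higher and 5 lower. Jun was higher by 0.42 ± 0.08 and its relative Junb lower, at -0.55 ± 0.09, and Myc was lower, at -0.62 ± 0.09. Of 3 tested erythroid markers none was called in limma's test, and of 3 tested markers of Schwann cells and neurons 1, the noradrenaline synthesis gene Dbh, was lower, at -0.50 ± 0.10. LOC691921, which the GRCr8 table calls Uqcc6, and LOC106736471, a long noncoding RNA there, were also among the largest differences. LOC691921 stood at 5.37, 6.97 and 7.7 FPKM after Llgl1/2 siRNA and 32.04, 34.2 and 29.5 after Yap siRNA, and LOC106736471 at 2.88, 5.15 and 3.56 and 24.1, 25.6 and 16.9, with controls at 24.1, 27.6 and 19.4.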
